A study of Mus musculus with 25 samples.

Results

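Chromatin accessibility was compared between a mouse beta cell line and a mouse alpha cell line by ATAC-seq, an assay in which a transposase inserts sequencing adapters where DNA is not packed around nucleosomes. All 65053 consensus peaks, the regions found open in the libraries of the series, entered the comparison, and none was chosen by its value. The 10 libraries of the unmixed lines were used of the 25 samples in the series, namely 5 of βTC6 and 5 of αTC1. The 9 ATAC-seq libraries of mixed lines were left out, and the 6 RNA-seq libraries of the same lines (3 and 3) served as an independent readout.

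αTC1 is a line grown from a mouse glucagonoma, and βTC6 is a line grown from a mouse insulinoma. Both arose in transgenic mice through the SV40 large T antigen, driven by the preproglucagon promoter in αTC1 and by the insulin promoter in βTC6, and neither was treated here. Each line is a single tumour-derived line, so the comparison is between these lines and not between alpha and beta cells at large. The lines were also kept in different media. αTC1 received DMEM with 10% FBS, HEPES, non-essential amino acids, BSA and 2 g/L glucose, and βTC6 received DMEM with 15% FBS and sodium pyruvate, so that line and medium cannot be told apart. The labels do not state that replicates were separate cultures, and p-values therefore measure the spread between these libraries only.

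Beta cells of the pancreatic islet make and release insulin, and alpha cells make and release glucagon. Both descend from a common endocrine progenitor and share many transcription factors, while others, such as PDX1 and MAFA in beta cells and IRX1 and IRX2 in alpha cells, mark a cell of one kind. Promoters, the stretches where transcription starts, are often rich in CpG dinucleotides and open in many cell types, whereas enhancers lie at a distance from the gene and are more often open in particular cell types.

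A peak is called a promoter peak here when its deposited distance to the nearest transcription start site is at most 2 kb, and a distal peak otherwise. The value of a peak is its read count normalized by the authors between libraries, hereafter the normalized count. A peak was called more open in a line at a false discovery rate under 5% and a log2 fold change beyond 2 in its direction, from a limma fit of log2(normalized count + 1) over all peaks. Log2 fold changes are βTC6 over αTC1 on that scale, which understates the change of peaks with low counts. A lower normalized count cannot tell less opening per cell, fewer cells with the site open and fewer DNA copies apart.

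Sequence of 7 called peaks is shown to set promoters beside distal sites, 6 of them among the peaks with the largest fold changes and 1 at the promoter of an insulin gene, Ins2. Each stretch is the exon-free run of 150 bases nearest the centre of the peak, from the plus strand of NCBIM37 (mm9), in lower case, with capitals at any match, on either strand, of the 8 motif cores counted further on. The matches in these stretches are an E-box at Cdhr1, a homeodomain core at Ins2, and GC boxes with a Maf core at AA545190, all spelled out beside their counts.
Cdhr1 promoter, more open in βTC6, chr14:37911498-37911647: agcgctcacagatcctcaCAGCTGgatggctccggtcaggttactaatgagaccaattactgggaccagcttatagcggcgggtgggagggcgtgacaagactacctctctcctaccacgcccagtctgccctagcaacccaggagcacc
Ins2 promoter, more open in βTC6, chr7:149865747-149865896: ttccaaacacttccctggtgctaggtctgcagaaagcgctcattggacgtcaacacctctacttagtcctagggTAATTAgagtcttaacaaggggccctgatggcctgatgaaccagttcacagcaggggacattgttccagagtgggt
Olfm4 distal peak, more open in βTC6, chr14:80876620-80876769: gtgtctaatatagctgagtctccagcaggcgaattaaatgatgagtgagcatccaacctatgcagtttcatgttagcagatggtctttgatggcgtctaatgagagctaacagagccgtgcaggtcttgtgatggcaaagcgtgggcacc
5330439B14Rik promoter, more open in αTC1, chr6:142562784-142562933: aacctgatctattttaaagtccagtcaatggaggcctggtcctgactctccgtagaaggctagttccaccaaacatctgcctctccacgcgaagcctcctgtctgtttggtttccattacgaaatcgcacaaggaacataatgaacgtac
Kcna5 promoter, more open in αTC1, chr6:126485574-126485723: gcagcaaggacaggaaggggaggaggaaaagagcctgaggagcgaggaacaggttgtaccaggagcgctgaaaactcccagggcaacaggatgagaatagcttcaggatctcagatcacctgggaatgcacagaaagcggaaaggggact
4930428G15Rik distal peak, more open in αTC1, chr9:115514637-115514786: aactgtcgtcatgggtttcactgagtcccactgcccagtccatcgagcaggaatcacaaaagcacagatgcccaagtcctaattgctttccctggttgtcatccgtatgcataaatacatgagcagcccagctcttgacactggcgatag
AA545190 distal peak, more open in αTC1, chr6:10640583-10640732: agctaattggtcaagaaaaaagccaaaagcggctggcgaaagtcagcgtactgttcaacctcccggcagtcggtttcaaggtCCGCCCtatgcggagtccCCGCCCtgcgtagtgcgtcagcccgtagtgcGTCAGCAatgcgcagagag
A capital stretch marks letters only and not a bound factor.

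Libraries held between 4397851 and 10374903 reads in peaks in βTC6 and between 6903416 and 8300868 in αTC1. Relative to the lowest value of the same library, 100% of values were whole multiples within a tolerance of 0.02, and 1 read was worth 0.0939 to 0.205 in normalized counts. No value was below 1 read in any library, and the lowest value may be a floor that also stands for 0 reads, so that 1 read is read here as 1 or none. At that value stood 512 peaks in all 10 libraries, of which none was called. The markers of both lines had the signal their names call for in most, not all, cases: Ins1, Ins2, Pdx1 and Mafa were listed at 0 to 0.64 FPKM (RNA per length and depth) in αTC1 and at 41.09 FPKM or more in βTC6, and Gcg and Irx2 were higher in αTC1 in every library. Gcg, at 12112.73 to 14405.91 FPKM in αTC1, was still at 172.22 to 266.94 FPKM in βTC6. Markers of delta, PP, acinar, duct, endothelial, immune and fibroblast cells (23 genes) summed to 15.9 to 16.6 FPKM in αTC1 and to 251 to 358 FPKM in βTC6, and 14 of the 23 stayed under 1 FPKM in all libraries. Most of the βTC6 sum was somatostatin (Sst) at 207.09 to 325.33 FPKM, which was listed at 0 in αTC1. These genes had 75 peaks, of which 6 (8%) were called in βTC6 and 8 (10.7%) in αTC1, against 12.9% and 5.38% over all peaks. The fibroblast markers alone had 6 of 23 peaks (26.1%) called in αTC1, all at Col1a2. The summed normalized counts of the 75 peaks were 940 to 1070 in αTC1 and 748 to 873 in βTC6. The part of such cells in the results was not tested.

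More peaks were more open in the beta line than in the alpha line, and distal peaks were called more often than promoter peaks. In all, 8409 peaks, or 12.9% of those tested, were called more open in βTC6, and 3502, or 5.38%, were called more open in αTC1. Of the 14582 promoter peaks, 804 (5.51%) were called in βTC6 and 206 (1.41%) in αTC1. Of the 50471 distal peaks, 7605 (15.1%) were called in βTC6 and 3296 (6.53%) in αTC1. A distal peak was therefore called 3.12 times as often as a promoter peak, at 21.6% against 6.93%, and this ratio lay between 2.13 and 3.81 in every other setting tried, each share taken over the peaks tested in that setting. Promoters were 22.4% of the consensus peaks but 9.56% of the peaks called in βTC6 and 5.88% of those called in αTC1. The split between the lines depends on the scaling: with quantile normalization 5655 and 5126 peaks were called, so that the βTC6 share of all calls fell from 70.6% to 52.5%, from 69.8% to 51.1% among distal calls and from 79.6% to 66.7% among promoter calls. Where the surplus of βTC6 calls lay turned with it, since 304 of the 529 surplus calls were then at promoters, against 598 of 4907 before.

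The fold threshold matters for this picture, since promoters did differ between the lines but by smaller amounts. The median absolute log2 fold change was 0.6 at promoters and 1.14 at distal peaks. At a false discovery rate under 5% with no fold threshold, 7625 promoter peaks (52.3%) were higher in αTC1 and 3408 (23.4%) in βTC6, the opposite order to the calls at the larger fold. Among distal peaks 22534 (44.6%) were then higher in βTC6 and 17174 (34.0%) in αTC1. The median log2 fold change was -0.31 over promoter peaks and 0.18 over distal peaks, while the median over all peaks was 0.0. With quantile normalization these medians were -0.13 and -0.05, so the direction of the distal median turned and the order of both classes was kept.

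**Figure D1:**
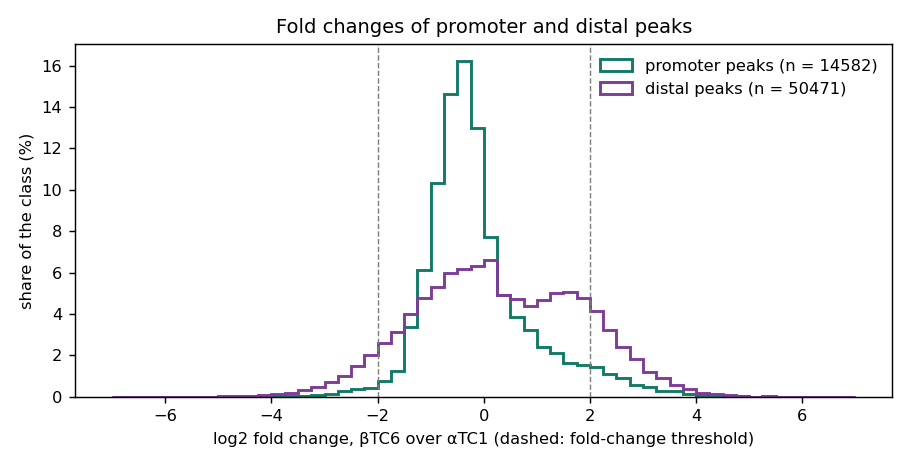
Distribution of the log2 fold change (βTC6 over αTC1, x axis) over promoter and distal peaks, as a share of the peaks of each class (y axis), with the call thresholds of 2 drawn as lines. Promoter peaks gather near 0 with a median of -0.31, and distal peaks, with a median of 0.18, spread farther to both sides.

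Accessibility at promoters was also more alike between the lines than accessibility at distal peaks when whole libraries were set against each other. Over promoter peaks, Pearson's r of log2 values was 0.948 to 0.984 for the 20 pairs of libraries of 1 line and 0.704 to 0.765 for the 25 pairs of different lines. Over distal peaks the corresponding ranges were 0.894 to 0.959 and 0.24 to 0.382. These coefficients are across peaks, which are not independent replicates, and distal peaks had lower counts, with median normalized counts of 4.67 in αTC1 and 6.21 in βTC6 against 25 and 21 at promoters. The difference in calls was also seen among peaks of like level. Where the line with the higher mean had 20 to 50 normalized counts, 6.47% of promoter peaks and 38.3% of distal peaks were called in either line, and above 50 the shares were 3.43% and 26.1%. The split between the lines changed with level at distal peaks. Above 50, 11.5% of distal peaks were called in βTC6 and 14.7% in αTC1. There βTC6 held 43.9% of the distal calls, against 85.5% under 5. At promoters above 50 it held 78.3% of the calls.

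Distance from the start site went with the share of called peaks, and differently in each line. Within 1 kb, 5.19% of 13073 peaks were called in βTC6 and 1.03% in αTC1. From 1 to 2 kb the shares were 8.35% and 4.71% of 1509 peaks, and from 2 to 10 kb they were 9.78% and 7.6% of 7134. From 10 to 50 kb they were 11.5% and 7.65% of 18192 peaks, and from 50 to 100 kb 14.6% and 7.23% of 9103. Beyond 100 kb, 21.8% of 16042 peaks were called in βTC6 and 4.39% in αTC1. The βTC6 share thus rose over all 6 distance classes, whereas the αTC1 share was highest between 2 and 100 kb. The lines came closest to an even split between 2 and 10 kb, where βTC6 held 56.3% of the calls, against 83.4% within 1 kb and 83.2% beyond 100 kb.

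**Figure D2:**
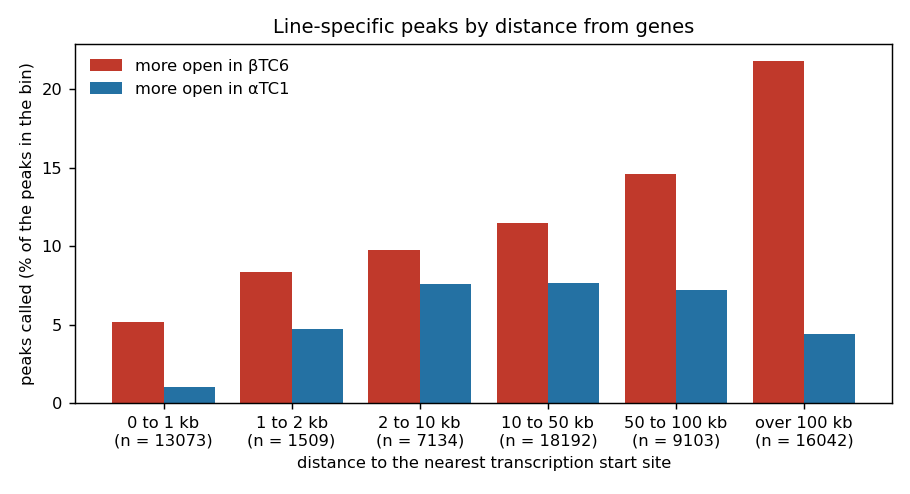
Share of peaks called more open in each line (y axis, percent of the peaks in the class) by distance to the nearest transcription start site (x axis, kb). The βTC6 bars grow from 5.19% within 1 kb to 21.8% beyond 100 kb, and the αTC1 bars peak at 7.65% between 10 and 50 kb.

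The share of reads that fell in promoter peaks gives 1 value per library and so can be tested over libraries. It was 48.9%, 49.5%, 49.1%, 44.5% and 43.0% in αTC1 and 44.0%, 41.7%, 43.7%, 41.5% and 40.9% in βTC6. αTC1 libraries were higher on average but the groups overlapped, because αTC1 replicate 5 lay below βTC6 replicates 1 and 3. The means were 47.0% ± 3.04 (SD, n = 5) and 42.3% ± 1.38 (SD, n = 5), a difference of 4.67 percentage points with p = 0.0317 in a two-sided exact permutation test. The p rose to 0.0635 without αTC1 replicate 1, 2 or 3 or without βTC6 replicate 2, 4 or 5. Within replicates 1 to 3 the difference was 6.08 points with an exact permutation p of 0.1, the smallest that 3 against 3 libraries allow, and within replicates 4 and 5 it was 2.56 points (exact permutation p = 0.333, the smallest that 2 against 2 allow). Only 23 peaks above 500 normalized counts, 4 of them promoter peaks, took 1.95% to 11.8% of the reads of a library, most in αTC1 replicates 4 (11.8%) and 5 (9.29%), and all 23 had a negative log2 fold change. Leaving these peaks out was chosen after the overlap was seen. Without them the shares were 50.1%, 50.8%, 50.4%, 50.1% and 47.0% in αTC1 and 44.6%, 42.5%, 44.4%, 43.8% and 42.0% in βTC6. The groups then no longer overlapped, with means of 49.7% ± 1.53 and 43.5% ± 1.15 (SD, n = 5 each). Of the peaks left out 19 were distal and all were higher in αTC1, so leaving them out raises the αTC1 share, and these values are a description with no test.

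The called promoters of the lines also differed from each other in base composition. In the central 200 bases, promoter peaks had a median GC content of 65% and 16 CpG over all, 65.5% and 15 CpG among those called in βTC6, and 53.5% and 4 CpG among those called in αTC1. Of 10856 promoter peaks with at least 10 CpG, 5.06% were called in βTC6 and 0.359% in αTC1. Of the 3726 with fewer, the shares were 6.84% and 4.48%, and of the 1260 with fewer than 4 they were 7.14% and 7.46%. At distal peaks the order was the other way, with a median GC of 46.0% over all, 43.0% among βTC6 calls and 48.5% among αTC1 calls. The centres of αTC1-called promoter peaks lay in annotated exons in 27.2% of cases, against 50.0% of βTC6-called and 48.5% of all promoter peaks. Centres of distal peaks were intergenic in 53.5% of cases over all, 54.9% among βTC6 calls and 45.2% among αTC1 calls.

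Short motif cores were counted in the same 200 bases on both strands, as letters and with no test. TAATTA, the core of many homeodomain sites, was in 14.1% of distal peaks called in βTC6, 4.19% of those called in αTC1 and 8.52% of all distal peaks. CAGCTG, an E-box, went the other way, at 14.4%, 31.1% and 18.5%. TGTTTAC, a forkhead core, was at 8.56% and 8.65% against 7.67%, and the AP-1 core TGANTCA at 13.1% and 16.0% against 12.7%. CCACNAG, part of the CTCF motif, was rarer in called distal peaks, at 7.11% and 11.6% against 13.6%. The CRE TGACGTCA was at 0.316% and 1.0% against 0.525%, and the Maf core TGCTGAC at 5.23% and 6.19% against 5.46%. At promoters the GC box GGGCGG was in 42.4% of βTC6-called, 14.1% of αTC1-called and 48.6% of all promoter peaks, and CAGCTG was in 13.4%, 28.6% and 12.7%. TGANTCA was in 3.98% of βTC6-called and 13.6% of αTC1-called promoter peaks against 3.32% of all. A motif rich in A and T or in G and C moves with the base composition given above, and that part was not tested.

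The calls were not spread evenly over the chromosomes. On chromosome 14, 40.1% of distal peaks and 13.8% of promoter peaks were called in βTC6 and 0.848% of all its peaks in αTC1, with a median log2 fold change of 1.74 at distal and 0.79 at promoter peaks. This chromosome held 4.35% of the peaks, 11.9% of the βTC6 calls and 8.58% of the βTC6 promoter calls. Chromosome 6 lay at the other end, with medians of -0.67 at distal and -1.09 at promoter peaks and 11.4% of its peaks called in αTC1. Chromosomes 1, 6 and 7 together held 19.9% of the peaks and 34.6% of the αTC1 calls. The distal median was above the promoter median on 20 of 20 chromosomes, by 0.03 on chromosome 11 up to 0.95 on chromosome 14. DNA copy number was not measured, so a whole chromosome present in more copies and a chromosome with more open chromatin cannot be told apart. Without chromosome 14, 7405 peaks were called in βTC6 and 3478 in αTC1, and 6.68% of promoter and 20.7% of distal peaks were called.

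**Figure D3:**
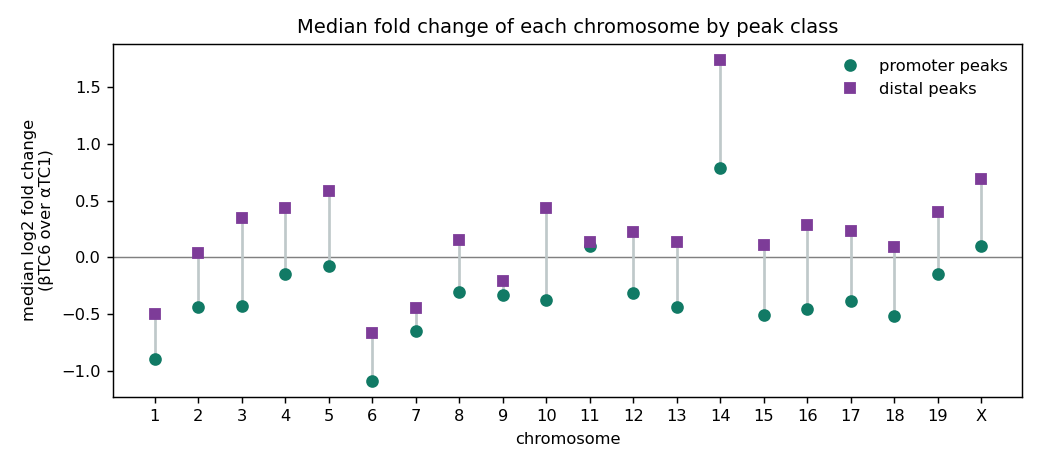
Median log2 fold change (βTC6 over αTC1, y axis) of the promoter and distal peaks of each chromosome (x axis). Chromosome 14 stands highest for distal peaks at 1.74 and chromosome 6 lowest for promoter peaks at -1.09, and the distal point lies above the promoter point on 20 of 20 chromosomes.

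On chromosome 11, 54 neighbouring peaks over 2.14 Mb (chr11:109037675-111177459) stood at the lowest value, 1 read or none, in all 5 αTC1 libraries. No run of more than 2 peaks at 3 reads or fewer occurred in βTC6. Of the 54 peaks, 52 were called in βTC6, among them all 15 promoter peaks, and the stretch holds 17 nearest genes. Of the 15 genes matched in the RNA table, each was at 0.05 FPKM or less in every αTC1 library, and 10 were above 1 FPKM in every βTC6 library. Kcnj2, Kcnj16, 1700012B07Rik, 1700023C21Rik and E030025P04Rik were at 0.14 FPKM or less in both lines. Prkar1a, a regulatory subunit of protein kinase A, was at 0.0, 0.0 and 0.02 FPKM in αTC1 and at 545.14, 584.4 and 434.56 FPKM in βTC6. Wipi1, an autophagy protein, was listed at 0 in αTC1 and at 92.88, 79.24 and 60.63 FPKM in βTC6. DNA copy number was not measured there either. Without the stretch, 8357 peaks were called in βTC6 and the called shares were 6.83% of promoter and 21.5% of distal peaks.

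Peaks with the largest fold changes are given next, per line and per class, among called peaks with a mean of at least 20 in the higher line. In βTC6, 4 of the 5 promoter peaks lay in the chromosome 11 stretch, at Wipi1, Amz2, Prkar1a and Kcnj2, an inward rectifier potassium channel. They were at least 212-, 163-, 115- and 102-fold higher in βTC6 than the level of 3 reads per αTC1 library. The remaining promoter was that of Cdhr1, a photoreceptor cadherin, where the peak (chr14:37911007-37911875) is centred in an exon, 56 bp from the start site. It had normalized counts of 1.12, 0.843, 1.5, 2.32 and 0.722 in αTC1 and 82.6, 98.9, 78.8, 79.9 and 102 in βTC6. Every βTC6 library was far above every αTC1 library, with a log2 fold change of 5.31 (SE 0.17, limma adjusted p = 3.38e-15).

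Distal peaks of βTC6 reached similar folds. Outside the stretch, which also held a peak 28258 bp from Rgs9 (at least 159-fold), the peak 476587 bp from Olfm4 (chr14:80876259-80877132, intergenic) had normalized counts of 0.28, 0.843, 0.451, 0.682 and 0.433 in αTC1. In βTC6 it had 58.2, 58.0, 56.2, 55.9 and 71.5, so that the lines were fully apart (log2 fold change 5.32, SE 0.16, limma adjusted p = 2.3e-15). Peaks near Slitrk6 (5.29), Klf5 (5.28) and G530011O06Rik on chromosome X (5.46) completed the set. Klf5 encodes a Krüppel-like transcription factor, and its peak lay 68126 bp from the start site.

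The largest αTC1 promoter changes fell at 3930402G23Rik and 5330439B14Rik. The peak at 3930402G23Rik (chr8:10928260-10928948) had normalized counts of 66.5, 60.5, 66.0, 63.7 and 58.6 in αTC1 and of 1.14, 2.26, 2.3, 2.14 and 1.22 in βTC6. The lines did not overlap (log2 fold change -4.54, SE 0.15, limma adjusted p = 6.53e-15). At 5330439B14Rik (chr6:142562350-142563402, intronic) αTC1 had 93.3, 88.5, 97.2, 95.8 and 97.1 and βTC6 had 3.98, 4.72, 4.86, 4.42 and 2.63 (-4.24, SE 0.13, limma adjusted p = 1.95e-15). The promoter of Kcna5, a voltage-gated potassium channel, had 22.1, 26.7, 28.1, 32.2 and 38.7 in αTC1 and 0.469 to 1.28 in βTC6 (-3.98). An olfactory receptor promoter, Olfr357, was at 18.3 to 38.3 in αTC1 and 0.143 to 1.28 in βTC6 (-3.89).

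Distal peaks of αTC1 are given next, and sequence of the leading pair is shown above. The peak 269433 bp from 4930428G15Rik (chr9:115514246-115515178) had 111, 108, 119, 134 and 154 normalized counts in αTC1 and 0.426, 1.03, 0.946, 1.28 and 0.657 in βTC6. Its log2 fold change of -6.08 (SE 0.15, limma adjusted p = 3.14e-16) was the largest among αTC1 peaks over the level minimum. The peak 283719 bp from AA545190 (chr6:10640212-10641105) had 63.2, 61.8, 56.4, 56.6 and 62.3 in αTC1 and 0.205 to 0.845 in βTC6 (-5.43). Peaks near Kcnj3, a G-protein-gated potassium channel (-5.35) and Ankrd23 (-4.99) were also in this group. All of the peaks named in these paragraphs kept their calls in every setting tried.

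**Figure D4:**
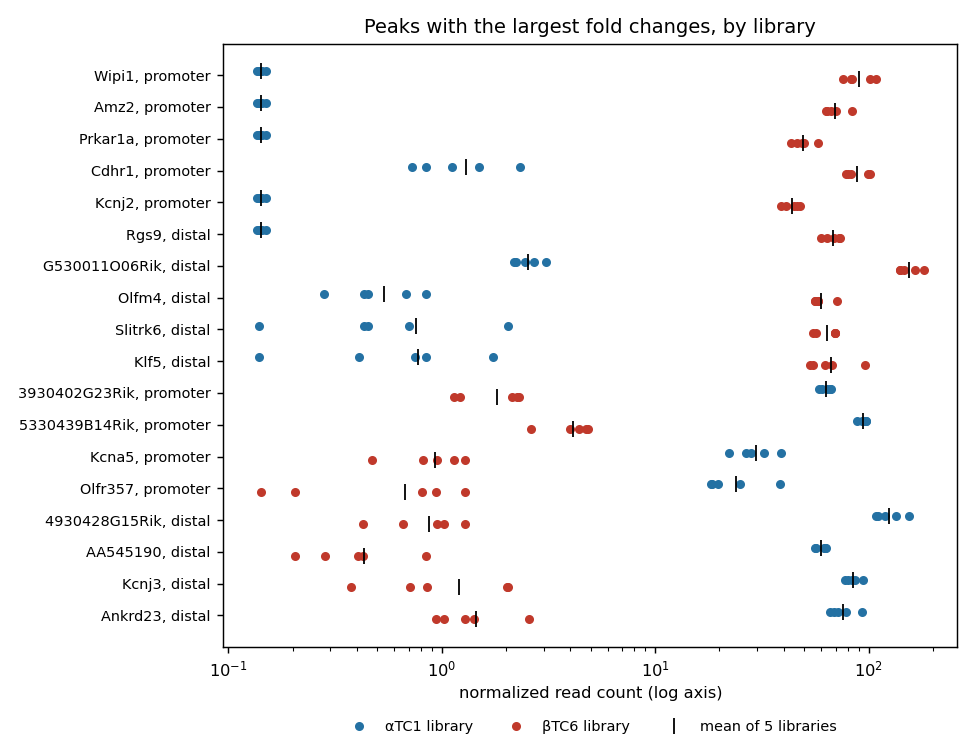
Normalized counts (x axis, log axis) of the peaks with the largest fold changes (y axis) in each αTC1 and βTC6 library, with the mean of 5 libraries as a bar. No peak has overlapping lines, and the peaks of the chromosome 11 stretch all sit at 1 read, near 0.14, in αTC1.

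Nearest genes differed in their number of line-specific peaks, and the genes with the most βTC6 calls had them far from their start sites. The deposited annotation gives each peak the gene with the nearest start site, which need not be the gene the peak acts on. The 65053 peaks fell to 17389 nearest genes, with a median of 2 peaks and a mean of 3.74. Of these genes, 5696 had a called peak, 3937 in βTC6 and 2410 in αTC1, and most of them had exactly 1 (2247 and 1737). At least 5 called peaks were seen for 343 genes in βTC6 and 49 in αTC1, and at least 10 for 69 and 2. Genes ranked 1 to 100 by their calls held 14.5% of the βTC6 calls and 14% of the αTC1 calls, while the 100 genes with the most peaks held 5.55% of all peaks. Since the ranking used the same calls, and calls are fewer than peaks, these shares are a description and do not test for gathering. Of the 100 genes, 32 of βTC6 were on chromosome 14 and 53 of αTC1 on chromosomes 1, 6 and 7. Genes with more peaks had more calls, with Spearman's rho across genes of 0.518 in βTC6 and 0.341 in αTC1.

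Among the 12 genes with the most βTC6 calls, 9 lie on chromosome 14. Olfm4, a secreted olfactomedin known from intestinal stem cells, led with 28 called of 54 peaks, none in a promoter, at distances of up to 2200 kb. The mean of its called peaks was 0.95, 1.13, 1.28, 1.22 and 1.22 in the αTC1 libraries and 15.0, 16.7, 14.6, 14.5 and 19.5 in βTC6. Since these peaks were picked by their call, that gap is a description. Pcdh9, a protocadherin, followed with 26 of 74 peaks, Slitrk1, a synaptic leucine-rich repeat protein, with 24 of 37, and Gpc6, a glypican, with 24 of 39. Klhl1, a Kelch-like protein of neurons, had 23 of 29, and Dach1, a transcriptional cofactor, 22 of 49. The other members on chromosome 14 were Lmo7 with 20 of 34 peaks, 4930505G20Rik with 20 of 33 and Slitrk6 with 18 of 43. Over the whole of chromosome 14, 35.5% of peaks and 40.1% of distal peaks were called in βTC6. Pcdh9 (35.1%), Slitrk6 (41.9%) and Dach1 (44.9%) lay near these shares, and Klhl1 was highest at 79.3%.

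Genes of this group on other chromosomes were Adgrl3, an adhesion receptor of the latrophilin family, with 22 of 68 peaks, Pea15b with 20 of 40 (both chromosome 5) and Tenm3, a teneurin, with 18 of 37 (chromosome 8). The share called in βTC6 was 15.3% of all peaks on chromosome 5 and 13.0% on chromosome 8. Over the 12 genes the median distance of called peaks from the start site was 233 to 759 kb. Promoter calls were few, 2 at Adgrl3 and 1 each at Slitrk1, Klhl1 and Slitrk6. The Klhl1 promoter (chr14:96917058-96919007) had 9.52, 11, 10.8, 11.6 and 16.5 normalized counts in αTC1 and 161, 167, 158, 155 and 175 in βTC6. All βTC6 libraries were higher, by 3.69 on the log2 scale (SE 0.11, limma adjusted p = 2.3e-15).

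Peaks more open in αTC1 gathered in smaller numbers and closer to their genes. Rybp, a Polycomb protein, led with 11 called of 29 peaks, followed by Gli2, a transcription factor of Hedgehog signalling, with 10 of 14 and Iqsec1, an exchange factor for Arf proteins, with 9 of 19. Gm6567 and Kcna5 had 8 of 10 each, Plekha5 8 of 19 and Foxp1, a forkhead factor, 8 of 27. Myom2, a protein of the sarcomere M band, had 7 of 12, Cdh20, a cadherin, 7 of 24, B930025P03Rik 7 of 17, and Gadd45a, a stress response gene, 7 of 13. Prok2, a secreted prokineticin, had 6 of 24 and in addition 2 peaks called in βTC6. Of the 12 genes, 10 lie on chromosomes 1, 6 or 7, and the median distance of called peaks was 19.5 to 542 kb. They had 25% to 80% of their peaks called and were picked by the number of calls. Over all peaks the αTC1 share was 8.48% on chromosome 1, 11.4% on chromosome 6, 8.15% on chromosome 7 and 5.02% on chromosome 8.

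Gli2 was among the genes whose αTC1 calls included promoter peaks. The mean of its 10 called peaks was 43.6, 41.7, 43.8, 43.1 and 51.7 in αTC1 and 2.13, 2.26, 2.64, 2.17 and 2.5 in βTC6. The promoter peak 1710 bp inside the gene (chr1:120948078-120948893) had 22.0, 26.5, 25.2, 21.6 and 22.0 in αTC1 and 0.142, 0.82, 2.43, 2.0 and 1.6 in βTC6. The lines did not overlap, with a log2 fold change of -3.45 (SE 0.25, limma adjusted p = 1.94e-10). The Gadd45a promoter was open in both lines, at 214 to 246 in αTC1 and 89.7 to 105 in βTC6 (-1.28), and was not called. The main promoter peaks of Rybp (-1.34) and Foxp1 (-0.77) likewise were higher in αTC1 in every library without passing the fold threshold.

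**Figure D5:**
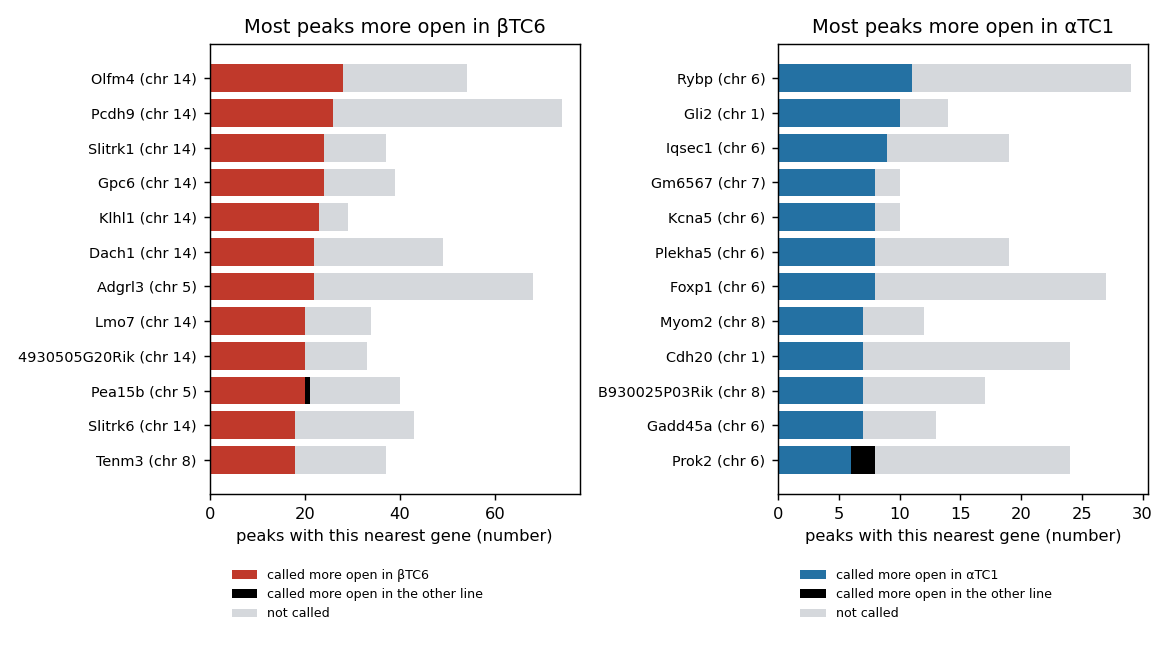
Number of peaks (x axis) that have each gene (y axis) as nearest gene, for the 12 genes with the most peaks called in βTC6 (left) and in αTC1 (right), split into called in that line, called in the other line and not called. Olfm4 has 28 of 54 peaks called and Rybp 11 of 29, and which gene leads depends on the setting.

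The order of the genes depends on the setting. edgeR on recovered reads put Adgrl3 (47 called peaks) and Pcdh9 (44) above Olfm4 (40), and with a pseudocount of 5 Slitrk1 (9) led and Olfm4 had 5. For αTC1, Gli2 had more called peaks than Rybp with a pseudocount of 0.5 (13 against 12) or 5 (6 against 4), with quantile normalization (14 against 12) and with edgeR (14 against 13). The members depended on the chromosome they lie on and on how far a nearest gene may be. After the median of each chromosome was subtracted from its log2 fold changes, Olfm4 kept 6 called peaks, Pcdh9 3, Slitrk1 5 and Klhl1 6, whereas Adgrl3 kept 12, Pea15b 14 and Tenm3 18. In αTC1 Rybp kept 2 and Foxp1 0, while Gli2, Gm6567, Myom2 and B930025P03Rik each had 7. The 12 leading genes then shared 2 members with the βTC6 list above and 4 with the αTC1 list, and Cntnap5a (22 called peaks), Dpp10 (19) and Tenm3 (18) led for βTC6. With only peaks within 100 kb of a start site, the βTC6 list shared no member with the one above and was led by Fgf14 with 12 called peaks and Nrg3 with 9, while Ins1 had 7. The αTC1 list kept 6 members under that limit, among them Kcna5, Iqsec1 and Plekha5 with 8 each and Gli2 with 7.

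RNA of these genes did not follow their number of peaks in a uniform way. Genes were called in RNA-seq by edgeR's quasi-likelihood test at the same thresholds; 10.2% of the 12195 genes tested were called higher in βTC6 and 4.08% higher in αTC1. Of the βTC6 group, Lmo7 was at 5.33, 4.73 and 5.8 FPKM in αTC1 and 50.37, 44.2 and 40.76 in βTC6, and was called (log2 fold change 3.03). Slitrk1 (2.92) and Slitrk6 (2.6) were called as well. Olfm4, at 0 to 0.05 FPKM in αTC1 and 0.54 to 0.79 in βTC6, was under the minimum of 1 FPKM and was not tested. Adgrl3 was at 0.1 to 0.28 FPKM in αTC1 and 6.81 to 11.88 in βTC6, and Klhl1 at 0 to 0.01 and 2.51 to 5.3. Gpc6, at 4.85 to 5.43 FPKM in αTC1 and 5.37 to 5.8 in βTC6, and Dach1, at 7.13 to 8.83 and 7.09 to 9.93, were closer between the lines. Gpc6 was higher in βTC6 by 0.54 (SE 0.1, edgeR adjusted p = 0.000708) without passing the fold threshold, and Dach1 by 0.18 (adjusted p = 0.272). Pcdh9 went against its 26 peaks, with 7.63, 7.48 and 9.2 FPKM in αTC1 and 2.24, 1.77 and 2.34 in βTC6 (-2.0, SE 0.14, edgeR adjusted p = 1.51e-06, called in αTC1).

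In the αTC1 group Gli2 was at 5.94, 6.57 and 7.57 FPKM in αTC1 and 0.1, 0.15 and 0.07 in βTC6 (-6.16, SE 0.2). Gadd45a was at 274.25, 272.33 and 276.41 FPKM in αTC1 and 56.2, 59.25 and 51.54 in βTC6 (-2.26, edgeR adjusted p = 3.68e-08). Kcna5 was at 1.03 to 1.31 FPKM in αTC1 and listed at 0 in βTC6. Rybp (-0.93), Iqsec1 (-1.79) and Foxp1 (-1.55) were higher in αTC1 in every library but did not pass the fold threshold. Cdh20, at 0.01 to 0.12 FPKM, and Prok2, at 0 to 0.03 FPKM, were under the minimum in both lines and were not tested. Tenm3 was not matched to the RNA table by an unambiguous symbol.

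Over all genes, RNA differences went more often with called promoters than with called distal peaks. Of 689 genes with a promoter peak called in βTC6 and no peak called in αTC1, 321 (46.6%) were called higher in βTC6 RNA and 4 (0.581%) higher in αTC1. Of 2597 genes with distal calls alone in βTC6, 271 (10.4%) were higher in βTC6 RNA and 25 (0.963%) higher in αTC1. The shares over all 17389 nearest genes were 6.46% and 2.39%, and over the 11693 genes without a called peak 3.87% and 1.54%. In αTC1, 55 of 174 genes with a called promoter (31.6%) were higher in αTC1 RNA and 0 higher in βTC6, and 105 of 1585 with distal calls alone (6.62%) were higher in αTC1 RNA and 20 (1.26%) higher in βTC6. With 2 to 4 distal calls these αTC1 shares were 11.3% of 382 genes, and with 5 or more 23.3% of 30. In βTC6 the share rose from 8.8% with 1 distal call to 13.6% with 2 to 4 and was 9.73% with 5 or more. Genes not matched in the RNA table or under the FPKM minimum count as not called in these shares, and 56.6% of the 689 and 52.7% of the 2597 genes passed it.

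Promoter and distal calls of the same gene mostly fell to the same line. Of 7729 genes with peaks of both kinds, 603 had a promoter called in βTC6 alone, and 60.5% of these also had a distal peak called in βTC6, against 30.0% over all 7729, while 9.45% had 1 called in αTC1, against 19.8%. Of the 129 with a promoter called in αTC1 alone, 46.5% had a distal peak called in αTC1 and 17.1% in βTC6. In the other direction, of 562 genes with at least 3 distal βTC6 calls and a promoter peak, 154 (27.4%) had a called promoter, against 5.95% of the 12591 genes with a promoter peak. In αTC1 it was 9 of 147 (6.12%) against 1.58%. Genes with calls in both directions were common among those with many, since 423 of the 1347 genes with at least 3 called peaks (31.4%) had calls in both lines.

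Genes of beta cell function included some with promoter and distal peaks both called in βTC6, namely Ins1, Iapp, Slc2a2 and Pcsk1. The 14 genes had 109 peaks, of which 31 (28.4%) were called in βTC6 and 5 (4.59%) in αTC1, against 12.9% and 5.38% over all peaks. Of their 12 promoter peaks 6 were called, all in βTC6, among them those of Ins1, Ins2, Iapp (islet amyloid polypeptide), Slc2a2 (the glucose transporter GLUT2) and Pcsk1 (a prohormone convertase). Ins2 had a single peak, at its promoter (chr7:149865420-149866225), with 1.12, 1.4, 2.55, 0.819 and 1.16 in αTC1 and 24.7, 20.9, 33.6, 31.8 and 19.8 in βTC6. It was higher in all βTC6 libraries (log2 fold change 3.5, SE 0.21, limma adjusted p = 1.76e-11). Ins1 had 12 called of 25 peaks, and its promoter was at 1.78 ± 0.583 in αTC1 and 51.2 ± 11.4 in βTC6 (SD, n = 5 each; 4.23), while a peak 11771 bp away reached 4.7. Slc2a2 had 6 called of 12. G6pc2, an islet glucose-6-phosphatase with 6 peaks, had no peak called in βTC6. Its promoter did not differ by the threshold (-0.04) and a distal peak was called in αTC1 (-2.34), while another peak leaned to βTC6 by 1.91 without being called. Its RNA was at 32.04 to 34.49 FPKM in αTC1 and 740.22 to 863.28 in βTC6.

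The beta cell transcription factors (7 genes, 40 peaks) had 11 peaks (27.5%) called in βTC6 and 2 (5.0%) in αTC1, against 12.9% and 5.38% over all peaks, so the αTC1 share was near that of all peaks. Of their 9 promoter peaks, 4 were called in βTC6, against 5.51% of all promoter peaks. Pdx1 had its promoter peak at 0.28, 0.702, 0.601, 0.409 and 0.144 in αTC1 and 27.7, 24.8, 25.5, 32 and 25.3 in βTC6, fully apart (4.31). Mafa showed opening at a distance only, since its promoter was not called (-0.46) and a peak 8360 bp away was (3.46), with RNA of 0.09 to 0.57 FPKM in αTC1 and 41.09 to 55.67 in βTC6. Nkx6-1 had 4 distal peaks called in βTC6, up to 3.91, and 1 in αTC1 (-4.03), and RNA in both lines, at 13.31 to 14.14 and 56.64 to 66.72 FPKM. Nkx2-2, with 1 promoter peak (-0.22), was not called in either readout.

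The 5 alpha cell factors counted (33 peaks) had 2 peaks (6.06%) called in βTC6 and 5 (15.2%) in αTC1, against 12.9% and 5.38% over all peaks. None of their 4 promoter peaks was called. Of all promoter peaks 5.51% were called in βTC6 and 1.41% in αTC1, and 4 peaks are too few to differ from these shares. Irx1 held 4 of the 5, all distal, and 1 distal peak called in βTC6, with its promoter at -0.58, and Irx2 had 1 peak, at -0.91, although the RNA of both was called higher in αTC1. Pou3f4, a POU factor of alpha cells, had a distal peak called in αTC1 (-3.17).

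Alpha cell function genes (8 genes, 55 peaks) had 8 peaks (14.5%) called in βTC6, near the 12.9% over all peaks, and 11 (20%) in αTC1, against 5.38%. Avpr1b held 4 and Gcg 3 of the 11. Gcg itself had a promoter peak at 154 ± 3.9 in αTC1 and 27.8 ± 3.81 in βTC6 (SD, n = 5 each; log2 fold change -2.44), so the glucagon promoter was below the αTC1 level in βTC6 but well above 1 read. Avpr1b, a vasopressin receptor, had 4 called of 6 peaks, at both promoters (-2.85 and -2.68) and at 2 distal sites (-4.08 and -3.8), and its RNA was at 38.52 to 47.95 FPKM in αTC1 and listed at 0 in βTC6. Members of this list also moved the other way. Dpp4, the dipeptidyl peptidase that cleaves incretins, had 4 peaks called in βTC6, its promoter among them, and was at 0 to 0.01 FPKM in αTC1 and 7.22 to 13.73 in βTC6. Gc, the vitamin D binding protein, had 2 peaks called in βTC6 and 1 in αTC1, with RNA listed at 0 in αTC1.

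Factors shared by endocrine cells (9 genes, 127 peaks) had 15 peaks called in βTC6 and 2 in αTC1, or 11.8% and 1.57%, against 12.9% and 5.38% over all peaks. Isl1, a LIM homeodomain factor, held 8 of the βTC6 calls among 37 peaks, all distal, with its promoter at 0.11 and its RNA at 186.55 to 257.38 FPKM in αTC1 and 126.61 to 146.57 in βTC6. Of the 18 promoter peaks of the list 3 were called, all in βTC6, 2 at Insm1 and 1 at Rfx6, against 5.51% of all promoter peaks. Insm1 RNA was at 6.52 to 7.41 FPKM in αTC1 and 45.74 to 56.8 in βTC6, and was called. Rfx6 RNA, at 21.8 to 31.21 and 22.87 to 26.34 FPKM, was not. Neurod1 (7 peaks), Myt1 (6) and St18 (15) had no called peak. The 8 ubiquitous genes had 18 peaks, 9 of them promoter peaks, and 0 called in either line, against 18.3% of all peaks and 6.93% of all promoter peaks. Their RNA was not alike throughout. Gapdh was at 29.01 to 42.85 FPKM in αTC1 and 1195.21 to 1584.25 in βTC6, while its peaks leaned to αTC1 (-1.69 to -1.66).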

How the data were processed

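ATAC-seq libraries were read as paired ends. Per the labels and the study's methods, Trimmomatic 0.32 trimmed the reads, BWA 0.7.9a aligned them to NCBIM37/mm9, Picard 1.95 removed duplicates, and the authors called peaks in each library with MACS2 2.1.0 and merged peaks seen in at least 2 samples with DiffBind 2.2.5. HOMER 4.6 gave the nearest gene. The deposited ATAC-seq signal is the read count in each consensus peak after the authors' TMM normalization, and is not a raw count. Columns in which the authors name the line a peak is specific to hold their own comparison and were not used. The authors made the RNA-seq expected counts and FPKM with RSEM 1.2.12 from Bowtie 2 alignments to Ensembl transcripts, and both were deposited per gene.

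Peaks were tested with limma 3.58.1 (trend) in R 4.3.3 on log2(normalized count + 1), with Benjamini-Hochberg adjustment over 65053 peaks. Reads recovered from the steps of the values (100% whole) were tested with edgeR 4.0.16 and DESeq2 1.42.0 as alternatives. RNA-seq was tested with edgeR's quasi-likelihood test on rounded expected counts of genes at 1 FPKM or more in all 3 libraries of a line, with 21795347 to 25876758 counts per library and without the 92 spike-ins. Nearest genes were matched to RNA by symbol (14699) or by an older symbol listed with GRCm38.p6 (934). Peak centres were annotated with GENCODE vM1. Named genes are the 12 per line with the most called peaks, and named peaks the 5 promoter and 5 distal peaks per line with the largest fold changes at a mean of at least 20, 1 per gene, besides the members of gene lists with a called peak or a defining role. These lists, and the comparison itself, were chosen with earlier results of these data known. Some genes of the lists and the ranking are not reported here. Replicate numbers did not pair the libraries. Statistics were tested on simulated data. Intervals and floors cover counting error only.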

Additional observations from a re-analysis of the deposited data

Results flagged for a closer look

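In 44 groups of 5 libraries, the highest or lowest value was compared with the others by Dixon's criterion (gap over range above 0.71), which chance passes in about 1 of 20 groups, and 2 values passed. The Olfm4 peak at chr14:80876259 had 71.5 normalized counts in βTC6 replicate 5, against 55.9 to 58.2 in the other βTC6 libraries. The share of reads in promoter peaks without the 23 highest peaks was 47.0% in αTC1 replicate 5, against 50.1% to 50.8% in the other αTC1 libraries, and still above every βTC6 library.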

How the results depend on the processing

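Over all peaks, calls in βTC6 outnumbered those in αTC1, and the called share was larger at distal than at promoter peaks, in all settings. In the main setting the order of the lines turned at distal peaks above 50 normalized counts. With a pseudocount of 5, 1668 peaks were called in βTC6 and 819 in αTC1 (2.02% of promoter and 4.34% of distal peaks). edgeR on recovered reads called 13794 and 5739 (35.8% of distal peaks), DESeq2 13612 and 5973 (35.9%), and an absolute log2 fold change over 1 gave 19374 and 12474 (26.1% and 55.6%). Without the FPKM minimum 3530 genes were called in RNA-seq. Leaving out 1 library at a time gave 8151 to 8620 βTC6 calls, 3314 to 3714 αTC1 calls, 6.77% to 7.17% of promoter peaks, 20.8% to 22.4% of distal peaks and 1729 to 1762 RNA calls. The difference in the promoter share of reads ranged from 4.04 to 5.68 percentage points without 1 library, with exact permutation p of 0.0159 to 0.0635.

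Replicate numbers did not pair the libraries (correlations of same-numbered libraries -0.0019 to 0.069 in ATAC-seq). A fit with the replicate number as a block gave 8409 and 3502 calls and 1744 RNA calls. With the block, the promoter share difference of 4.67 had an exact sign-flip permutation p of 0.0625, the smallest that 5 pairs allow. Restricting to replicates 1 to 3 (6.08, p = 0.1) or 4 and 5 (2.56, p = 0.333) left exact permutation tests that cannot pass 0.05, also without the 23 highest peaks (6.63 and 5.63, a description only, since those peaks all lean to αTC1). Leaving out these peaks, chromosome 14 or the chromosome 11 stretch was chosen after seeing the data. Near the fold threshold, 3392 called peaks had an absolute log2 fold change of at most 2.25, and 4057 peaks past the false discovery rate lay between 1.75 and 2.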
